A study of Homo sapiens with 3 samples.

Results

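The genes described here are 9 genes of matrix proteolysis: the matrix metalloproteinases MMP1, MMP2, MMP9 and MMP14, the tissue inhibitors of metalloproteinases TIMP1, TIMP2 and TIMP3, the urokinase-type plasminogen activator PLAU and its receptor PLAUR. They were chosen by gene symbol, and each of the 9 was found in the deposited table of 51136 genes. The cells were PANC-1, an established human pancreatic ductal carcinoma line, and the study asked how 2 agents that were later combined with cantharidin change its expression profile. The control library came from cells with no agent, the Rg3 library from cells given 200 μM ginsenoside Rg3 for 24 h, and the TAM library from cells given 50 μM tamoxifen for 24 h. Ginsenoside Rg3 is a saponin of ginseng, and tamoxifen is an antiestrogen that the study used as an inhibitor of protein kinase C. Whether the control cells received the solvent is not given in the sources used here, and the agents were given at different doses.

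Matrix metalloproteinases are zinc proteases that are made as inactive proenzymes and cleave collagens, basement membrane and other matrix proteins once activated. MMP14 is anchored in the cell membrane and activates proMMP2 in a complex that contains TIMP2, so that TIMP2 serves as an adaptor at low levels and as an inhibitor at high levels. Urokinase, bound to its receptor on the cell surface, cuts plasminogen to plasmin, which degrades fibrin and activates several proenzymes. Both systems are known for their part in invasion and in the sprouting of vessels, and urokinase and its receptor are common in pancreatic cancer.

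Each condition had 1 library of Ion Proton reads, and the reads counted on genes came to 11300766 for control, 12861693 for Rg3 and 11321442 for TAM. No difference below has a replicate check. The 95% intervals, computed by the exact Clopper-Pearson method, reflect only counting error between 2 libraries and not the spread between cultures. A log2 fold change is the log2 ratio of counts after TMM scaling, a correction for the composition of the libraries, and genes entered a comparison from 10 counts in 1 of its libraries upward. A gene is named higher or lower only when it was called, that is, when its fold was past 1.5 and its interval did not reach 0. The TMM scaling put log2 fold changes 0.14 lower for Rg3 against control, 0.21 higher for TAM against control and 0.35 higher for TAM against Rg3 than division by library totals. The log2 fold change of genes with 50 counts or more also followed the GC content of the transcript, falling with it in the Rg3 library (Spearman's rho -0.81 over 11583 genes) and rising with it in the TAM library (0.51 over 11022 genes). It followed transcript length as well, with rho 0.20 for Rg3 against control and -0.45 for TAM against control. For TAM against Rg3, rho was 0.78 with GC content and -0.38 with length over 11595 genes. These correlations describe the libraries, since genes are not independent replicates.

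The label of the cells was checked against marker genes. Each library had at least 7406 counts of KRT8, KRT18 and VIM, the epithelial keratins and the vimentin that PANC-1 cells are known to express together. Of the 4 other markers of the line, SOX9 had 996 counts in the control library, 916 after Rg3 and 723 after TAM, and KRT19 had 665, 290 and 181. KRT7 had 248, 93 and 345 counts and EPCAM 26, 26 and 8, so that EPCAM was under 10 counts with TAM. The summed level of the 7 markers was 7412 counts per 1000000 counted reads (CPM) in the control library, 4380 after Rg3 and 6261 after TAM. No read was counted on 5 acinar and 4 endocrine markers. Of 6 markers of fibroblasts and stellate cells only COL1A1 passed 10 counts (1853 in the control library, 1005 after Rg3 and 734 after TAM), while COL1A2, DCN, LUM, PDGFRB and ACTA2 had at most 7 counts each. The summed level of that list was 165 CPM in the control library, 79.5 after Rg3 and 66.1 after TAM. Of 5 leucocyte markers CD68 (615, 426 and 1100 counts) and CD14 (97, 46 and 37) passed 10 counts, with PTPRC and CSF1R at 1 count or fewer and LYZ at 0. The summed level of these 5 markers was 63.0, 36.7 and 101 CPM. Of the 50-base stretches of the longest CD68 transcript, 97.4% recur in other annotated genes, mainly AC016876.2 and AC016876.1. Of 5 endothelial markers KDR alone passed 10 counts (49, 54 and 52), and CDH5 and CLDN5 were at 0.

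The upstream sequences of PLAU and MMP14 are shown because both genes were higher with TAM against control. RefSeq (GRCh38.p14) lists PLAU with a start downstream of chr10:73910882-73911101 and MMP14 with a start downstream of chr14:22836335-22836554, both on the plus strand. The windows run from 250 to 31 bases before the start, 5′ to 3′, with matches to the searched motifs in capitals.

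PLAU: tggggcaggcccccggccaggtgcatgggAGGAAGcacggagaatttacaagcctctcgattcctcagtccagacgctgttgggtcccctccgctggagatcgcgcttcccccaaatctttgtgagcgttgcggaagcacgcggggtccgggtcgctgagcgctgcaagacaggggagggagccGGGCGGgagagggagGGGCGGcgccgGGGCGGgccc
MMP14: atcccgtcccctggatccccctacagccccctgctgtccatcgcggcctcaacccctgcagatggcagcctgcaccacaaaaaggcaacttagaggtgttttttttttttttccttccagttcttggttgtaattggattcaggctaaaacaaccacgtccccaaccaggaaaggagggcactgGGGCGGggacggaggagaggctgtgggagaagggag

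Searched on both strands were the GC box (GGGCGG), the core of an ETS site (AGGAAG), the AP-1 site (TGANTCA) and the TATA box (TATAAA). The PLAU window held 3 GC boxes, with first bases at -66, -51 and -40 from the start, and an ETS core at -221. The MMP14 window held 1 GC box, at -66. Neither window held the AP-1 letters, and no matches overlapped. Of 35116 RefSeq promoters, 42.6% held a GC box, 28.7% an ETS core, 6.57% an AP-1 site and 10.7% a TATA box in their 250 bases before the start. PLAU has another listed start, whose 250 bases held none of the motifs. The 250 bases before the start of PLAUR held the AP-1 letters at -186 and an ETS core at -15. TIMP1 had 2 GC boxes and 1 ETS core and TIMP3 had 5 GC boxes. For MMP1, MMP2, MMP9 and TIMP2 no upstream sequence was used here. A match is a run of letters and says nothing about binding.

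Together the 9 genes took 952 CPM in the control library, 648 after Rg3 and 1130 after TAM. PLAU supplied 38.3% of these reads in the control library, 42.1% after Rg3 and 59.6% after TAM. Levels between genes were compared as CPM divided by the length of the longest GENCODE 29 transcript in kilobases. In the control library the order was TIMP1 (194), PLAU (137), MMP2 (60.9), TIMP2 (35.01), PLAUR (6.43), MMP14 (1.83), MMP1 (0.36) and TIMP3 (0.23), with MMP9 at 0. The counting intervals of neighbours in this order overlapped for MMP1 with TIMP3 and for TIMP3 with MMP9, and for no other pair. With Rg3, TIMP1 (125) and PLAU (103) again led, and TIMP2 (36.1) stood above MMP2 (24.8). With TAM, PLAU (253) stood above TIMP1 (189), and MMP1 (2.11) reached the level of MMP14 (2.53), with overlapping intervals. The transcripts of TIMP1 and PLAU were thus the most abundant per length in each library, and those of MMP9, TIMP3 and, outside the TAM library, MMP1 were near the limit of detection.

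**Figure D1:**
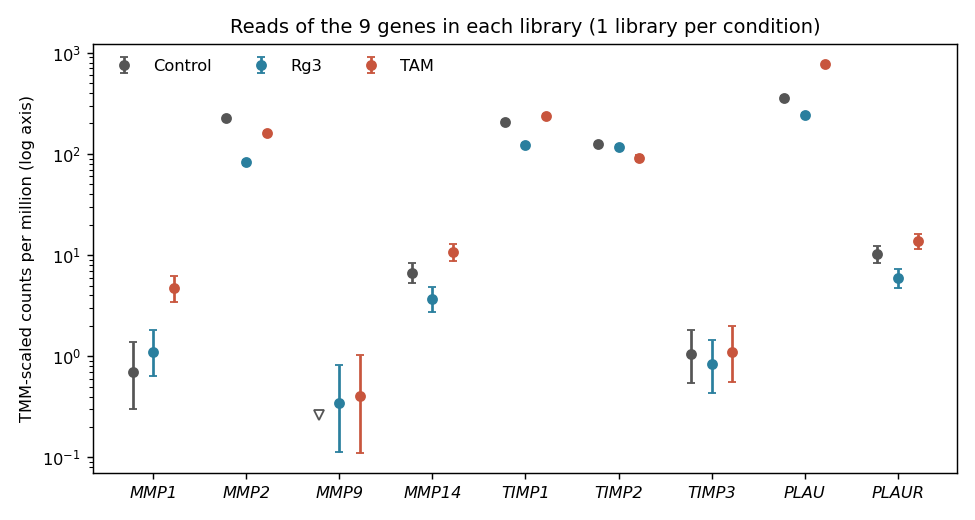
TMM-scaled CPM (log axis) of the 9 genes in the control, Rg3 and TAM libraries, 1 point per library, with 95% exact counting intervals. The open triangle marks the limit of 3 counts that the 0 counts of MMP9 in the control library allow. MMP2 stands lowest with Rg3, and PLAU and MMP1 stand highest with TAM.

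The comparison of Rg3 with control asks which of the genes differ after the saponin. Of the 9 genes, 8 passed the minimum of 10 counts and were compared, and 4 of these were lower in the Rg3 library: MMP2, MMP14, TIMP1 and PLAUR. None was higher. Over all 16487 genes compared, 16.0% were lower and 20.9% were higher. The median log2 fold change of the 8 genes was -0.67, beside 0.04 over all genes. With division by library totals, 1770 genes in all were lower and 4456 higher, against 2635 and 3438 with TMM scaling, and the same 4 of the 9 genes were called. Under an assumed biological coefficient of variation of 0.2, none of the 4 was called.

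MMP2, the gelatinase that cleaves type IV collagen of basement membranes, had 2576 counts in the control library and 1191 with Rg3. It fell by 1.44 on the log2 scale (95% interval -1.54 to -1.34), 2.71-fold. The gene lies on chromosome 16 from 55389700 to 55506691 (GRCh38, GENCODE 29), and 3.44% of the 50-base stretches of its longest transcript recur in AC007336.3, which overlaps it on the same strand. Its transcript has 56.5% GC. Genes of 54 to 57% GC had a median log2 fold change of -0.40 and a 10th percentile of -0.87, so that MMP2 stood below most genes of like composition. In RNA from whole cultures, fewer cells that express a gene and less of its RNA per cell cannot be told apart. After removal of the GC and length trend, the log2 fold change of MMP2 was -0.94, and of the 9 genes MMP2 alone was still called. COL1A1 had fewer reads as well, while the other 5 fibroblast markers were near 0 in each library.

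MMP14, the membrane-anchored activator of proMMP2, had 77 counts in the control library and 53 with Rg3. It fell by 0.87 on the log2 scale (-1.40 to -0.34), with a wide interval that follows from the few reads. The gene lies on chromosome 14 from 22836557 to 22849027, and none of its 50-base stretches recurs in another annotated gene. TIMP1, a broad inhibitor of soluble metalloproteinases that also acts as a growth factor, had 2399 and 1761 counts. It fell by 0.77 (-0.86 to -0.68), 1.71-fold. It lies on chromosome X from 47582313 to 47586789, within an intron of SYN1, which had 1 count in the control library and 9 with Rg3. PLAUR, the glycolipid-anchored urokinase receptor on chromosome 19 from 43646095 to 43670547, had 117 and 85 counts. It fell by 0.79 (-1.21 to -0.37). The 3 decreases were of similar size and their intervals overlapped. After removal of the GC and length trend, the values were -0.28 for MMP14, -0.29 for TIMP1 and -0.36 for PLAUR, and none was called.

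PLAU, on chromosome 10 from 73909177 to 73917497, had 4120 counts in the control library and 3511 with Rg3. Its log2 fold change was -0.56 (-0.62 to -0.49), a fold of 1.47 that stayed under the limit of 1.5, and it was -0.18 with the trend removed. Of the 50-base stretches of its longest transcript, 19.9% recur in C10orf55 on the opposite strand, which had 9 counts in the control library, 5 after Rg3 and 19 after TAM. Whether reads were counted by strand is not given in the sources used here. TIMP2, on chromosome 17 from 78852977 to 78925387, had 1445 and 1696 counts, with a log2 fold change of -0.10 (-0.20 to 0.01). That small value changed its sign, to 0.04, with library totals and, to 0.27, with the trend removed. Of the stretches of TIMP2, 13.0% recur in other annotated genes, mainly AC022966.1 and CEP295NL.

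The 3 other genes had few reads. MMP1, the interstitial collagenase on chromosome 11 from 102789920 to 102798160, had 8 counts in the control library and 16 with Rg3. Its log2 fold change of 0.67 had an interval from -0.64 to 2.11, and at this depth no difference could be detected. TIMP3, the matrix-bound inhibitor on chromosome 22 from 32801701 to 32863043, had 12 counts in both libraries (-0.33, from -1.61 to 0.96). It lies within an intron of SYN3, which had 18, 7 and 7 counts. MMP9, the gelatinase on chromosome 20 from 46008908 to 46016561, had 0 counts in the control library, which allows up to 3, and 5 with Rg3 and 4 with TAM. It was not compared. Of its 50-base stretches 11.2% recur in SLC12A5-AS1 on the opposite strand.

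The comparison of TAM with control asks the same of the antiestrogen. Of the 8 genes compared, PLAU, MMP1 and MMP14 were higher in the TAM library and none was lower. Over all 16079 genes compared, 14.4% were higher and 18.9% were lower. The median log2 fold change of the 8 genes was 0.30, beside -0.02 over all genes. With division by library totals, 1176 genes in all were higher and 4390 lower, against 2322 and 3033 with TMM scaling, and 2 of the 9 genes, MMP2 and TIMP2, were then lower. This comparison shares its control library with that of Rg3, so that the values are given side by side and were not set against each other.

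PLAU had 4120 counts in the control library and 7627 with TAM, the highest count of any of the 9 genes in any library. It rose by 1.09 on the log2 scale (1.04 to 1.15), 2.14-fold. Genes of 51 to 54% GC, which include PLAU at 53.95%, had a median log2 fold change of 0.16 and a 90th percentile of 0.71. PLAU stood above that range, and after removal of the GC and length trend it was 0.82 and still called. The call was lost when the variation between cultures was assumed to be 0.2 or 0.4. C10orf55, which overlaps PLAU, had 9 and 19 counts, and whether reads of that gene were counted on PLAU was not tested.

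MMP1 had 8 counts in the control library and 47 with TAM. It rose by 2.76 (1.67 to 4.05), 6.78-fold, the largest fold of the 9 genes in this comparison, from a low level. Its transcript has 43.4% GC, and with the trend removed its log2 fold change was 2.80. The call was lost at an assumed variation of 0.4, under which no gene of the whole table was called higher with TAM. Of its 50-base stretches 2.92% recur in WTAPP1 on the opposite strand, on which no read was counted in any library. MMP14 had 77 and 107 counts and rose by 0.68 (0.24 to 1.12), 1.60-fold. That call was lost with library totals (0.47) and with the trend removed (0.42), and under an assumed coefficient of variation of 0.2.

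MMP2 had 2576 counts in the control library and 1603 with TAM, a log2 fold change of -0.48 (-0.57 to -0.39), 1.39-fold lower and under the limit of 1.5. TIMP2 had 1445 and 910 counts, -0.46 (-0.58 to -0.34). Both were called lower with library totals, at -0.69 and -0.67, and with the trend removed, at -0.69 and -0.60. TIMP1 had 2399 and 2347 counts and a log2 fold change of 0.17 (0.09 to 0.26), which took the other sign with library totals (-0.03) and with the trend removed (-0.25). PLAUR had 117 and 137 counts (0.43, from 0.07 to 0.80) and TIMP3 had 12 and 11 (0.08, from -1.24 to 1.39, and -0.13 with library totals). The intervals of TIMP3 spanned 0 in each comparison.

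**Figure D2:**
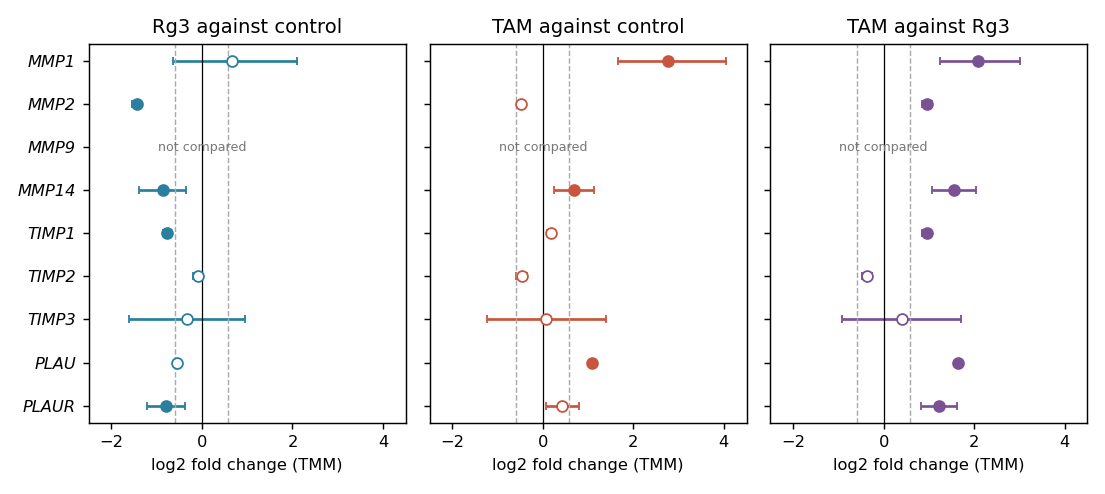
Log2 fold changes (TMM scaling) of the 9 genes for Rg3 against control, TAM against control and TAM against Rg3, with 95% exact counting intervals. Filled points were called, and dashed lines mark 1.5-fold. With Rg3, MMP2, MMP14, TIMP1 and PLAUR lie to the left, and with TAM, MMP1, MMP14 and PLAU lie to the right. MMP9 was not compared.

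The treated libraries were also set against each other, at their different doses. In the TAM library 6 of the 8 compared genes were higher than in the Rg3 library, and none was lower. Over all 16493 genes compared, 27.1% were higher and 30.9% were lower. The 6 genes were MMP1 (16 counts with Rg3 and 47 with TAM), PLAU (3511 and 7627), MMP14 (53 and 107), PLAUR (85 and 137), MMP2 (1191 and 1603) and TIMP1 (1761 and 2347). MMP1 stood 2.09 higher on the log2 scale (1.24 to 3.00), PLAU 1.65 (1.59 to 1.71) and MMP14 1.55 (1.06 to 2.05). PLAUR stood 1.22 higher (0.82 to 1.63), MMP2 0.96 (0.85 to 1.07) and TIMP1 0.95 (0.86 to 1.04). TIMP2 alone of the well-counted genes had a negative value, -0.37 (-0.48 to -0.25), and was not called. TIMP3 had 12 and 11 counts (0.41, from -0.92 to 1.71). Genes of 54 to 57% GC, the range of MMP2 and PLAUR, had a median log2 fold change of 0.70 and a 90th percentile of 1.46. For genes of 57 to 60% GC, the range of TIMP1 and MMP14, these were 0.84 and 1.51. After removal of the GC and length trend, MMP1 (2.44), PLAU (0.95) and MMP14 (0.63) were higher and TIMP2 (-0.93) was lower, while MMP2 (0.19), PLAUR (0.33) and TIMP1 (-0.03) were not called. With library totals, TIMP2 was also lower (-0.71), and across all genes 2722 were higher and 6766 lower, against 4477 and 5094. Under an assumed coefficient of variation of 0.2, MMP1, MMP14, PLAU and PLAUR kept the call, and MMP2 and TIMP1 lost it.

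**Figure D3:**
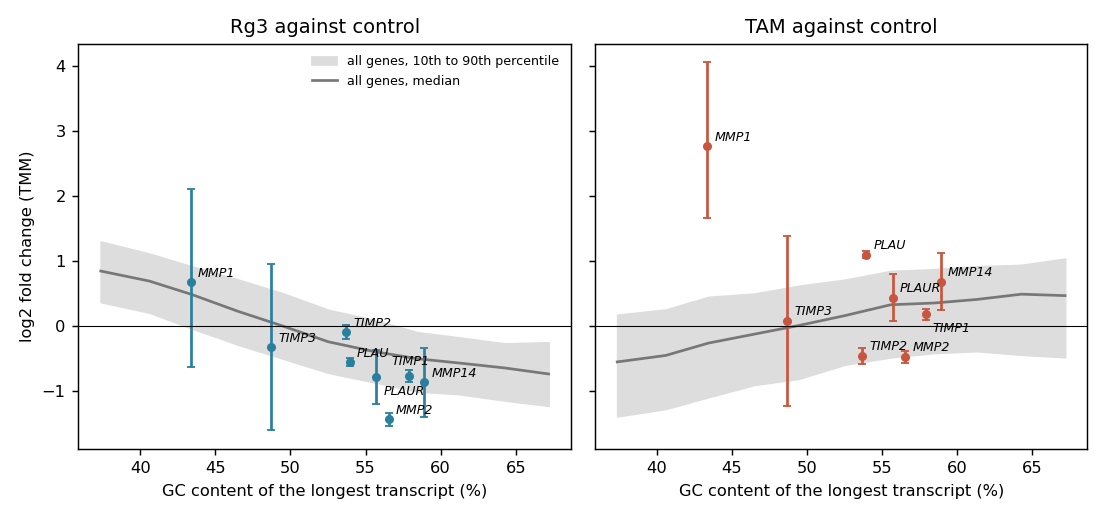
Log2 fold change against the GC content of the longest transcript for Rg3 against control and TAM against control. The line is the median and the band the 10th to 90th percentile of genes with at least 50 counts, in bins of GC content, and the points are the compared genes with 95% counting intervals. MMP2 lies below the band with Rg3, PLAU and MMP1 lie above it with TAM, and MMP14, TIMP1 and PLAUR lie within it in both.

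A ratio of 2 genes within a library does not depend on the scaling between libraries, and 2 pairs were taken. MMP14 and TIMP2 were paired because their products form the complex that activates proMMP2, and TIMP1 and TIMP2 as 2 inhibitors. For the membrane protease and its adaptor, the ratio of MMP14 to TIMP2 reads was 0.053 in the control library, 0.031 after Rg3 and 0.12 after TAM. Its log2 change was -0.77 after Rg3 (-1.31 to -0.24) and 1.14 after TAM (0.69 to 1.60), and it was 3.76-fold higher with TAM than with Rg3. With the GC and length trend removed, the change was -0.55 after Rg3 (-1.09 to -0.015) and 1.015 after TAM (0.56 to 1.47). Between treated libraries the log2 change of 1.91 became 1.56. The ratio of TIMP1 to TIMP2 was 1.66 in the control library, 1.04 after Rg3 and 2.58 after TAM. Its log2 change was -0.68 after Rg3 (-0.81 to -0.54) and 0.64 after TAM (0.49 to 0.78). After removal of the GC and length trend the change was 0.35 with TAM, and the 1.31 between treated libraries became 0.89. Raw reads of TIMP1 and TIMP2 were thus nearly even in the Rg3 library and weighted to TIMP1 in the control and TAM libraries. These are counts of transcripts of unlike length. Per kilobase TIMP1 stood above TIMP2 in each library, at 125 against 36.1 CPM with Rg3. Summed over genes, the 4 metalloproteinases gave 235 CPM in the control library, 98.4 after Rg3 and 156 after TAM, of which MMP2 supplied at least 91.0%. The 3 inhibitors gave 341, 270 and 289 CPM.

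**Figure D4:**
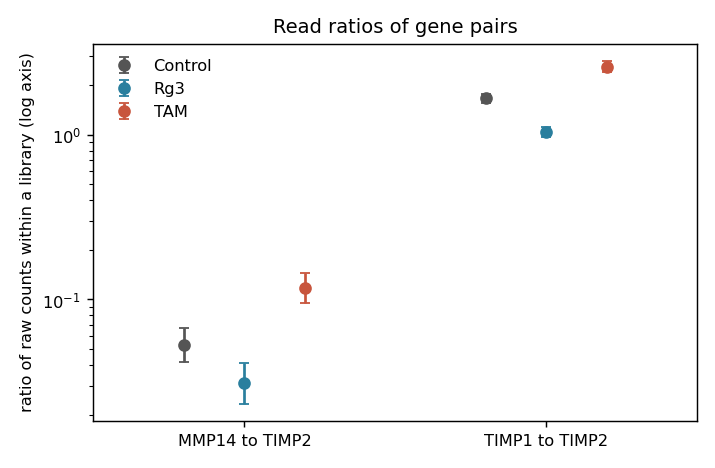
Ratios of raw counts within each library (log axis) for MMP14 to TIMP2 and TIMP1 to TIMP2, with 95% exact counting intervals, 1 point per library. Both ratios are highest in the TAM library and lowest in the Rg3 library.

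The other genes of the plasminogen system were described from a list of 16 genes, of which 11 were compared with control. With Rg3, 5 of these genes were lower and none was higher: SERPINE2, MRC2, ENO1, F12 and SERPINF2. In the TAM library SERPINE2 and PLAT were higher, and IGF2R and SERPINF2 were lower. The shares over all genes were 16.0% lower and 20.9% higher for Rg3, against 18.9% and 14.4% for TAM. The median log2 fold change of the list was -0.27 with Rg3 and 0.36 with TAM, beside 0.04 and -0.02 over all genes. The same shares and medians over all genes stand behind each list that follows. List values are given with TMM scaling and without removal of the GC and length trend. Library totals would put them 0.14 higher for Rg3 and 0.21 lower for TAM. Among the named genes that would take BSG, ENO1, F12, CTSH and ADAMTS14 with Rg3 and FURIN and CTSD with TAM under 1.5-fold. The interval of PLAT with TAM would then span 0. Other listed genes, such as PLGRKT with Rg3 and ADAM9 with TAM, would gain a call. Genes of 39 to 42% GC had a median of 0.69 with Rg3 and -0.46 with TAM. Those of 60 to 63% GC had -0.57 and 0.40. How much of a listed value follows GC content or length was not tested. SERPINE2, or protease nexin 1, an inhibitor of urokinase and thrombin, had 57 counts in the control library, 31 after Rg3 and 87 after TAM. It fell by 1.21 after Rg3 (-1.89 to -0.55) and rose by 0.82 after TAM (0.32 to 1.32). MRC2, a collagen receptor that associates with the urokinase receptor, had 3544, 2241 and 2664 counts and fell by 0.99 with Rg3 (-1.07 to -0.91), with a value of -0.21 with TAM. ENO1, a glycolytic enzyme that also binds plasminogen at the cell surface, had 72852, 59015 and 88222 counts. It fell by 0.63 with Rg3 (-0.65 to -0.61).

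F12, coagulation factor XII, had 295, 243 and 333 counts and fell by 0.61 with Rg3 (-0.86 to -0.36). IGF2R, the mannose 6-phosphate receptor, had 4212, 5523 and 2347 counts, and it fell by 0.64 with TAM (-0.71 to -0.56). PLAT, the tissue-type activator, was rare, with 13, 16 and 24 counts, and rose by 1.09 with TAM (0.06 to 2.19). SERPINF2, the plasma inhibitor of plasmin, had 18, 3 and 5 counts, with log2 fold changes of -2.91 (-5.32 to -1.14) and -1.64 (-3.43 to -0.16). The subunits of the plasminogen-binding annexin A2 complex were abundant and were not called against control, with 28502, 31453 and 26175 counts for ANXA2 and 3539, 4464 and 3983 for S100A10. SERPINB6 (1760, 1826 and 1954 counts) and the plasminogen receptor PLGRKT (67, 122 and 52) were not called against control either. Plasminogen itself, PLG, had no read in any library. Between the treated libraries 10 genes of the list were compared, of which 6 were higher with TAM and 2, IGF2R and PLGRKT, were lower. Over all genes in that comparison, 27.1% were higher and 30.9% were lower.

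Of 19 other metalloproteinases, 6 had no read in any library and 6 were compared in each comparison. With Rg3 1 was higher and 2 were lower, and with TAM none was higher and 1 was lower, with medians of -0.27 and -0.35. The 1 of 6 lower with TAM is near the 18.9% of all genes. MMP15, a membrane-type metalloproteinase, had 336 counts in the control library, 369 after Rg3 and 100 after TAM, and fell by 1.54 with TAM (-1.88 to -1.22). MMP16, another membrane-type enzyme, had 48, 92 and 33 counts and rose by 0.61 with Rg3 (0.09 to 1.15). Beside these, MMP14 had 77, 53 and 107 counts. Of 10 regulators of metalloproteinases 6 were compared. With Rg3 3 were lower and none higher, and with TAM 1 was higher and 2 were lower, with medians of -0.46 and -0.17. For Rg3 the share of all genes called lower was 16.0%, and for TAM 14.4% of all genes were called higher and 18.9% lower. FURIN, the convertase that removes the propeptide of MMP14, had 1840, 1283 and 2591 counts, fell by 0.85 with Rg3 (-0.95 to -0.74) and rose by 0.70 with TAM (0.61 to 0.79). LRP1, the endocytic receptor that clears inhibitor-bound urokinase, had 1931, 1345 and 770 counts and fell by 0.85 with Rg3 and by 1.12 with TAM. BSG, also known as the inducer of metalloproteinases EMMPRIN, fell by 0.65 with Rg3. RECK, a membrane-anchored inhibitor of MMP2, MMP9 and MMP14, fell by 0.73 with TAM (-1.21 to -0.27), from 115 counts to 60.

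Among the cell-surface and lysosomal proteases, 3 of 10 membrane serine proteases and their inhibitors were compared, namely TMPRSS2, SPINT1 and SPINT2. Of these 2 were lower with Rg3, the inhibitors SPINT1 and SPINT2, and 1 with TAM, SPINT1. The medians (-1.10 and -1.38) are the values of the protease TMPRSS2, which was not called. It had 12 counts in the control library, 7 after Rg3 and 4 after TAM, and its intervals spanned 0. The inhibitor SPINT2 fell by 0.74 with Rg3 (-0.77 to -0.71). Of 11 ADAMs, membrane-anchored sheddases and their relatives, 8 were compared. With Rg3 3 were higher and 2 lower, and with TAM 2 were lower and none higher (medians 0.23 and -0.22). The shares over all genes were 20.9% higher and 16.0% lower for Rg3 and 18.9% lower for TAM, so that the 2 of 8 lower with TAM are near the share of all genes. ADAM10 had 655, 1449 and 269 counts, rose by 0.82 with Rg3 (0.68 to 0.95) and fell by 1.08 with TAM (-1.29 to -0.87). Genes of up to 39% GC, which include ADAM10 at 38.3%, had medians of 0.84 and -0.56. ADAM9 rose by 0.81 with Rg3. ADAM22 rose by 1.13 with Rg3 and fell by 0.61 with TAM. ADAM19 fell by 1.07 with Rg3, where genes of 51 to 54% GC, its own range, had a median of -0.25. Of 19 ADAMTS genes, secreted proteases of proteoglycans and procollagens, 9 were compared with Rg3, where 4 were lower, and 7 with TAM, where 2 were higher and 1 lower (medians -0.70 and 0.21). ADAMTS15 had 1659, 780 and 811 counts and fell by 1.42 with Rg3 and by 0.83 with TAM, ADAMTS14 fell by 0.70 with Rg3, and ADAMTS1 rose by 1.11 with TAM. Of 17 cathepsins and cystatins 13 were compared, of which Rg3 had 3 lower and none higher, and TAM had 3 higher and 2 lower (medians -0.35 and 0.24). The shares over all genes were 20.9% higher and 16.0% lower for Rg3, and 14.4% higher and 18.9% lower for TAM. The 2 of 13 lower with TAM are near the share of all genes, while none of the 13 was higher with Rg3. CTSD, an aspartic protease of lysosomes, had 10132, 7222 and 14975 counts, fell by 0.82 with Rg3 and rose by 0.77 with TAM. CTSB fell by 0.74 and CTSH by 0.66 with Rg3, CTSC rose by 0.85 with TAM, and CTSH fell by 1.39 and CTSV by 0.79 with TAM.

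AP-1 and ETS factors are known to act at the promoters and enhancers of PLAU, PLAUR and several metalloproteinase genes. Of 18 such factors 17 were compared. With Rg3 1 was higher and 5 were lower, and with TAM 6 were higher and 1 was lower, with medians of -0.44 and 0.23, beside 0.04 and -0.02 over all genes. The shares over all genes were 20.9% higher and 16.0% lower for Rg3, against 14.4% and 18.9% for TAM. JUN had 824 counts in the control library, 754 after Rg3 and 1620 after TAM and rose by 1.18 with TAM (1.06 to 1.30). JUNB, with 176, 177 and 345 counts, rose by 1.18 (0.91 to 1.45), and FOSL1, with 1385, 1241 and 2088 counts, rose by 0.80 (0.70 to 0.90). The ETS repressor ERF rose by 0.87 with TAM and fell by 0.79 with Rg3. ETS2 had 3534, 1633 and 2434 counts and fell by 1.44 with Rg3 (-1.53 to -1.35), BATF3 fell by 0.91, and ATF3, a stress-induced factor, rose by 1.09 from 34 counts to 91. Whether any of these factors bears on the genes described was not tested.

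**Figure D5:**
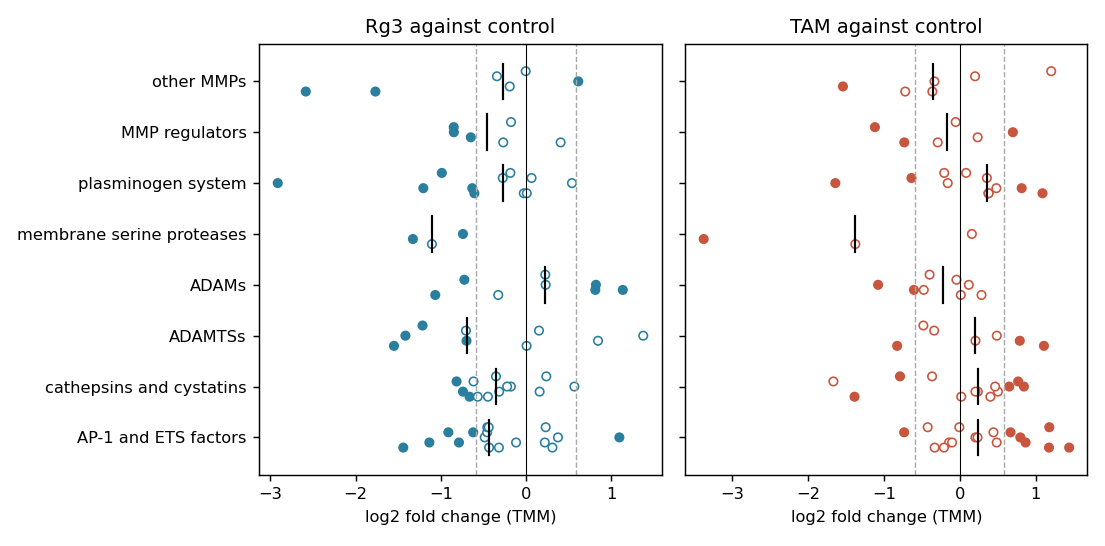
Log2 fold changes (TMM scaling) of the compared genes of 8 lists around the 9 genes, for Rg3 against control and TAM against control. Each point is a gene, filled where called, the bar is the median of the list, and dashed lines mark 1.5-fold. Medians run from -1.10 to 0.23 with Rg3 and from -1.38 to 0.36 with TAM, on a scale that TMM set 0.14 lower and 0.21 higher than library totals would. The lowest median in both is that of the membrane serine proteases, and is the value of TMPRSS2 (12, 7 and 4 counts, not called).

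PLAU, the gene with the most reads among the 9, was also compared with the patterns of other genes, as the distance between pairs of log2 fold changes with Rg3 and with TAM. Of 8425 genes with at least 100 counts in each library, 162 lay within 0.25 of it, or 1.92%. The nearest were RELT, a receptor of the tumour necrosis factor family, at a distance of 0.01, CTU2, an enzyme of transfer RNA thiolation (0.01), FAM173A (0.03), MIR31HG, the host transcript of a microRNA (0.03), and IER3, an immediate early response gene (0.05). IER3 had 2303 counts in the control library, 1923 after Rg3 and 4372 after TAM. With 3 libraries such likeness rests on 2 values per gene. In the order named, the nearest genes had transcripts of 61.5, 62.9, 72.7, 56.9 and 58.5% GC, beside 53.95% for PLAU. Genes of 60 to 63% GC had medians of -0.57 with Rg3 and 0.40 with TAM. How much of the likeness follows GC content was not tested.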

How the data were processed

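PANC-1 cells were profiled in 3 libraries, 1 per condition, grouped by the agent named in the sample labels. The authors assessed reads with FAST-QC, aligned them with TopHat and ran MAQ on the alignments for splice junctions, and deposited raw read counts for 51136 gene symbols, without normalization. GRCh38 is the build in the submitters' processing notes. The counting tool, annotation and use of strand are not given in the sources used here, and the counting of overlapping genes and of reads shared with similar genes can therefore not be checked. Depth, from 11300766 to 12861693 counted reads, sets the precision of genes with few reads, and intervals and the limit of 3 counts for a count of 0 cover counting error only.

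TMM factors (edgeR 4.0.16, R 4.3.3) were 1.02 for control, 1.12 for Rg3 and 0.88 for TAM. Folds and exact 95% intervals were computed in Python 3.11.15 with scipy 1.17.1, for genes that reached 10 counts in 1 library of the pair, with counts under 3 raised to 3. A test across cultures such as edgeR's quasi-likelihood test or the Limma criteria of the methods needs replicates and could not be fitted here. Calls were thus made for libraries, not conditions. Length and GC content were those of the longest GENCODE 29 transcript, found for 86.6% of genes compared for Rg3, 87.2% for TAM and 86.5% between them.

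Alternatives were library totals, DESeq2 1.42.0 size factors, minimum counts of 1 or 50, the fold alone, a fold of 2, a binomial test with Benjamini-Hochberg adjustment over all genes, the exact test of edgeR under a biological variation set by hand to 0.2 or 0.4, and subtraction of a loess trend (span 0.3) on GC content and length. In simulated libraries for Rg3 against control (16387 genes), 94.0% of 200 genes changed 2-fold were called, as were 182 of 16187 unchanged genes. The simulation held counting error only, without spread between cultures or a GC trend, and changed only genes above a minimum mean count. Its rates are therefore not the rates of false or missed calls in the real libraries. Named were the 9 genes, the genes of the plasminogen list with at least 10 counts, up to 4 called genes of each list with at least 50 counts and the largest fold against control, and the 5 patterns nearest to PLAU. The members and lists were chosen with earlier results of these data known, and 1 gene of the plasminogen list is not reported here.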

Additional observations from a re-analysis of the deposited data

How the results depend on the processing

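No paired analysis was possible because there was only 1 library of each condition, and for the same reason none could be left out. Over the 9 genes, 187 of 234 log2 fold changes under the alternatives kept their direction and their side of the call. Of the rest, 34 lost the call, 7 gained it and 6 changed sign. Only library totals, DESeq2 size factors and the trend removal recomputed the value, so that the other settings could not change its sign. Both minimum counts could not change a call either, and genes never called count as kept. The tally is thus a description and no measure of stability. With library totals, 2 genes were lower with TAM against control and 1 against Rg3, and the sign changed for TIMP2 with Rg3 (0.0444) and for TIMP1 (-0.0343) and TIMP3 (-0.13) with TAM. DESeq2's size factors, both minimum counts and the adjusted binomial test moved no count of called genes by over 1.5 times, and a minimum of 50 left out MMP1 and TIMP3. The fold alone added 1 gene, MMP1, as higher with Rg3, and a fold of 2 left 1 gene, MMP2, lower with Rg3.

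An assumed biological coefficient of variation stands for the spread between cultures. At 0.2, 0 genes were lower with Rg3, 1, MMP1, was higher with TAM, and 4 were higher with TAM against Rg3. With 0.4, 0 were lower with Rg3, 0 higher with TAM and 0 higher with TAM against Rg3, and at that value at most 1 gene of all those compared passed in any comparison. The spread between cultures is not known from 1 library each.

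After removal of the GC and length trend, 1 gene was lower with Rg3 and 2 were lower with TAM, and between treated libraries 3 were higher and 1 was lower. The sign changed for TIMP2 with Rg3 (0.27) and for TIMP1 with TAM (-0.25) and between treated libraries (-0.0340). The log2 change of the ratio of TIMP1 to TIMP2 was 0.35 with TAM and 0.89 between treated libraries.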
